A study of Mus musculus with 5 samples.

Results

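The MYC, MAX and MXD network was described through 10 genes, which are Myc, Mycl, Mycn, Max, Mlx, Mxd1, Mxd4, Mxi1, Mnt and Mga. Its members were all non-control array probes that the scanner files name after 1 of these genes, and 20 of the 56605 probes met this, for 10 of 36870 gene names. MYC proteins bind DNA only as a pair with MAX and raise transcription of genes for growth, ribosome production and metabolism. MAX also pairs with the MXD proteins, with MNT and with MGA, and these pairs occupy the same E-box sites and lower transcription through the SIN3 corepressor or, for MGA, a Polycomb complex. MLX forms a parallel branch with the glucose-sensing factors MondoA (gene Mlxip) and ChREBP (gene Mlxipl), and in the resting adult liver Myc is kept low and is induced early after injury.

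Livers of female BALB/c mice, 6 weeks old, were taken 6 hr after intraperitoneal dosing, in a study set up around the liver injury that troglitazone causes. The groups were BSO plus TGZ (700 mg/kg BSO and 300 mg/kg TGZ), TGZ alone (300 mg/kg), BSO plus RGZ (700 mg/kg BSO and 300 mg/kg RGZ), RGZ alone (300 mg/kg) and vehicle. TGZ is troglitazone and RGZ is rosiglitazone, thiazolidinediones that activate PPAR gamma, and BSO, buthionine sulfoximine, blocks glutathione synthesis; no group given BSO alone was analysed here. Each group was 1 pool of RNA from 6 animals on 1 array, so there was no replicate and no difference was tested. Having only 1 array a group sets the limit on precision.

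Signals are scaled so that the 75th percentile of each array is 100, and before scaling that percentile lay between 141.5 and 208.3 intensity units. Between 51.9% and 55.1% of probes were well above background on an array by the scanner software's call, and no probe was saturated. The lowest signal so called, which is the floor used for a dim probe, was 5.0 to 6.63 scaled units. All 9 hepatocyte markers were well above background on all 5 arrays. A fold is a ratio of scaled signals, and its 95% interval covers the software's error of the spots and no variation between animals or pools. Genes differing by at least 2-fold were counted.

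The Myc result rests on 2 probes of 60 bases, shown because they gave different sizes of change. Both lie on the plus strand of mm9, the first at chr15:61821417-61821476 and the second at chr15:61820925-61820984.
Myc A_52_P108346: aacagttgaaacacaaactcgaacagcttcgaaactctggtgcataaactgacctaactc
Myc A_52_P278549: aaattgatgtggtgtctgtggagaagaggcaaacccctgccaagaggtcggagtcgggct

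Promoter windows are shown for the network genes that carry the network's own binding motif. RefSeq windows of 300 bases (250 before and 50 after the gene start, GRCm38.p6) were given for 9 of the 10 genes, in 11 windows, with none for Myc, and 4 of the 9 genes held the E-box CACGTG, which reads the same on both strands. Of all 27025 genes with windows, 8.09% held it. The 60 bases around each match follow, with the E-box in capitals. They come from chr5:34187897-34187956 (minus strand) for Mxd4, chr11:74830774-74830833 (plus) for Mnt, chr11:101087223-101087282 (plus) for Mlx and chr12:76962219-76962278 (minus) for Max.
Mxd4: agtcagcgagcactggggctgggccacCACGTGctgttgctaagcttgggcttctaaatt
Mnt: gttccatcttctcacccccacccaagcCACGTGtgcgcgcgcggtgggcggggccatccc
Mlx: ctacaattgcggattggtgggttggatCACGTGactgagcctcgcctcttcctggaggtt
Max: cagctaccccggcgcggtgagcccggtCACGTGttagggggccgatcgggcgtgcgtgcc
The E-box began 219 bases before the gene start in Mxd4, 123 in Mnt, 40 in Mlx and 3 in Max. The stress-responsive AP-1 motif TGACTCA and the cyclic AMP motif TGACGTCA, searched on both strands, were held by 0 of these 9 genes, and by 5.95% and 2.03% of all genes with windows. The Myc promoter was not searched for any of these motifs.

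Among the MYC proteins, Myc was higher and Mycl and Mycn were lower with TGZ. Myc encodes the MYC protein of injured and growing liver. Its scaled signal was 86.9 with BSO plus TGZ, 102.3 with TGZ, 15.7 with BSO plus RGZ, 31.5 with RGZ and 9.17 with vehicle. Both TGZ arrays were highest, both RGZ arrays lay between, and vehicle was lowest. TGZ gave 11.2-fold the vehicle signal (interval 7.69 to 16.2), which ranked 116 from the highest among 18986 genes measured on both arrays. BSO plus TGZ gave 9.48-fold (6.54 to 13.8), RGZ 3.43-fold (2.36 to 5.0) and BSO plus RGZ 1.71-fold (1.16 to 2.55). With RGZ the Myc difference ranked 49 of 19924, although it was smaller than with TGZ. In the order of levels, TGZ and BSO plus TGZ lay within spot error of each other, and every other pair of neighbours lay beyond it.

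The second Myc probe was dimmer and gave 17.8 with BSO plus TGZ, 21.1 with TGZ, 7.16 with BSO plus RGZ, 6.89 with RGZ and 4.87 with vehicle, where it was not well above background. The TGZ arrays were again the highest, and the RGZ arrays were close to the floor. Against the floor of the vehicle array, the second probe was at least 3.77-fold higher with TGZ, at least 3.18-fold with BSO plus TGZ, at least 1.23-fold with RGZ and at least 1.28-fold with BSO plus RGZ. In whole tissue, a change in the number of cells of a type and a change of RNA per cell cannot be told apart. Neutrophil markers were also highest on the TGZ arrays: their summed scaled signal over 11 markers was 25749 with BSO plus TGZ, 25617 with TGZ, 12620 with BSO plus RGZ, 11970 with RGZ and 11013 with vehicle, and none was below background on every array. At least 2-fold higher than vehicle, bounds included, were 8 of 11 with BSO plus TGZ and 7 of 11 with TGZ. With BSO plus RGZ it was 4 of 11, and with RGZ 4 of the 9 that had a value. These are 72.7%, 63.6%, 36.4% and 44.4%, where 14.2%, 19.6%, 6.83% and 3.32% of all genes were past 2-fold in either direction. Cholangiocyte markers were likewise highest on the TGZ arrays, with sums over 7 markers of 1090 with BSO plus TGZ, 1352 with TGZ, 438.6 with BSO plus RGZ, 541.6 with RGZ and 632.8 with vehicle. Of these, Krt7 and Epcam were not well above background on any array, and 1 of the 5 measured was at least 2-fold higher than vehicle with BSO plus TGZ and with TGZ. That is 20% in each, beside the same 14.2% and 19.6% of all genes, so the share with TGZ was near that of all genes. The part of neutrophils and cholangiocytes in the Myc result was not tested.

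Mycl encodes L-MYC. On the scaled axis Mycl read 7.68 with BSO plus TGZ, 4.90 with TGZ, 67.0 with BSO plus RGZ, 45.0 with RGZ and 30.2 with vehicle. It was not well above background with TGZ, while both RGZ arrays lay above vehicle. Mycl was at least 4.56-fold lower with TGZ, and 3.93-fold lower with BSO plus TGZ (2.52 to 6.15). It was 2.22-fold higher with BSO plus RGZ (1.66 to 2.96) and 1.49-fold higher with RGZ (1.11 to 1.99). The other Mycl probe was not well above background on any array. Dendritic cells are known to express Mycl, and their markers, a list added after values were seen, summed to 29268 with BSO plus TGZ, 28724 with TGZ, 22449 with BSO plus RGZ, 24059 with RGZ and 23913 with vehicle. Of the 8 markers, Xcr1 and Cd209a were not well above background on any array. Of the 6 with a value, 1 was at least 2-fold higher than vehicle with BSO plus TGZ and 0 with TGZ. These are 16.7% and 0%, where 14.2% and 19.6% of all genes were past 2-fold in either direction. The part of dendritic cells in the Mycl result was not tested.

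Mycn encodes N-MYC, known mainly from embryonic tissue and some tumours, and had 1 probe. Mycn signals, scaled, were 9.80 with BSO plus TGZ, 3.78 with TGZ, 29.8 with BSO plus RGZ, 26.2 with RGZ and 47.5 with vehicle. Vehicle was highest, the RGZ arrays lay between, and the TGZ array was not well above background. Mycn was at least 7.17-fold lower with TGZ, 4.85-fold lower with BSO plus TGZ (3.23 to 7.28), 1.82-fold lower with RGZ (1.35 to 2.45) and 1.6-fold lower with BSO plus RGZ (1.19 to 2.15). Mycl and Mycn are dim genes, with processed signals of at most 128.0 and 87.7 intensity units, and normexp background correction with an offset of 50 brought their TGZ differences to -0.54 and -0.83 on the log2 scale, short of 2-fold. Sinusoidal endothelial markers were lowest with TGZ, where Mycl and Mycn were lowest, with sums over 8 markers of 6190 with BSO plus TGZ, 4627 with TGZ, 6148 with BSO plus RGZ, 6553 with RGZ and 7092 with vehicle. All 8 were well above background on every array, and with TGZ 2 were at least 2-fold higher than vehicle and 3 lower. That is 62.5% past 2-fold, where 19.6% of all genes were. Kupffer cell and macrophage markers were also lowest with TGZ. Sums over 9 markers were 7557 with BSO plus TGZ, 5712 with TGZ, 6094 with BSO plus RGZ, 6493 with RGZ and 6585 with vehicle. The Kupffer cell sum was thus highest with BSO plus TGZ, where Mycl and Mycn were also low. With TGZ, 1 of the 9 was at least 2-fold higher than vehicle and 0 lower. That is 11.1% past 2-fold, under the 19.6% of all genes. The part of endothelial and Kupffer cells in the Mycl and Mycn results was not tested.

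**Figure D1:**
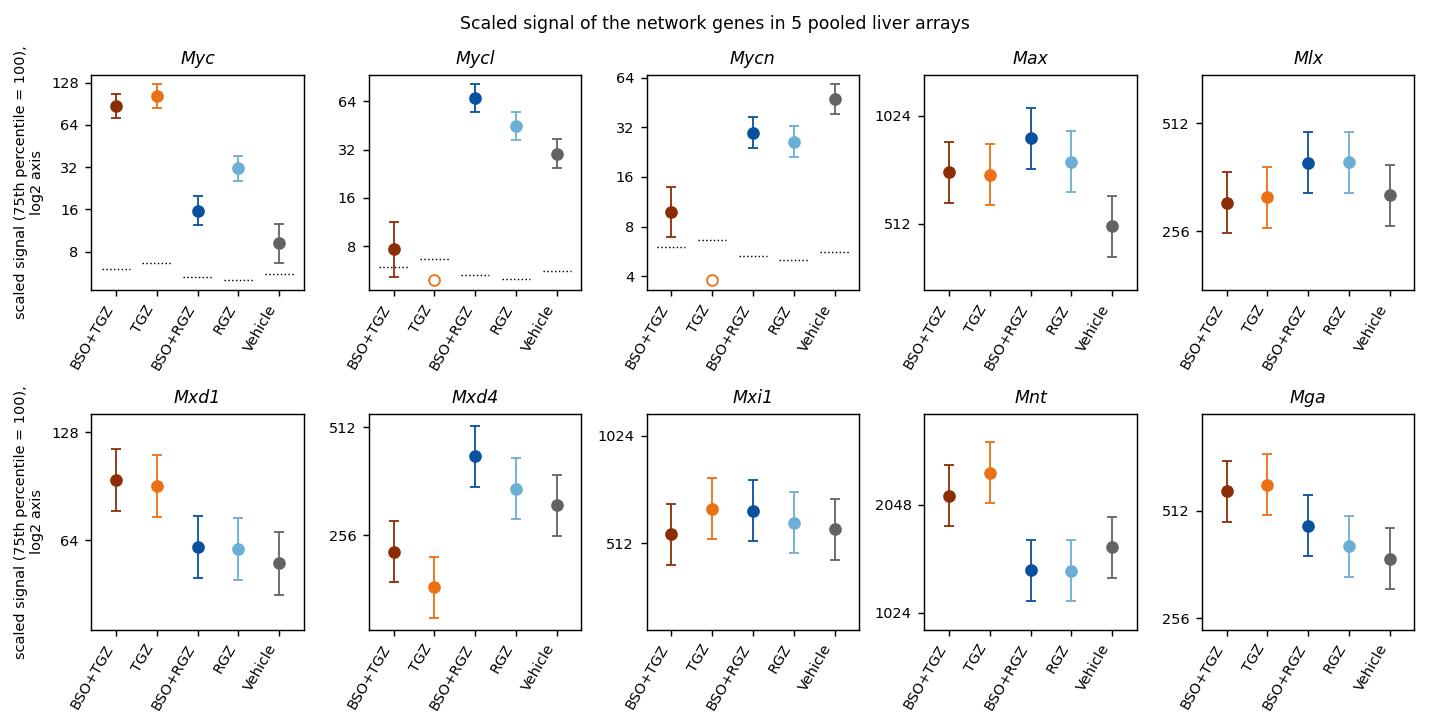
Scaled signal of the 10 network genes (log2 vertical axes, 75th percentile of each array = 100) on the 5 arrays. Points are 1 array each, bars are 95% intervals of spot error, open circles are not well above background, and dotted dashes mark each array's floor. Myc was 86.9 and 102.3 on the TGZ arrays against 9.17 with vehicle, and Mycn was 47.5 with vehicle.

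MAX is the shared partner of the network. Max had scaled signals of 711.5 with BSO plus TGZ, 700.6 with TGZ, 884.6 with BSO plus RGZ, 762.2 with RGZ and 503.2 with vehicle. Every treated array was higher than vehicle, and the 4 treated arrays followed each other in order within spot error. The excess was 1.41-fold with BSO plus TGZ (1.07 to 1.87), 1.39-fold with TGZ (1.06 to 1.84), 1.76-fold with BSO plus RGZ (1.33 to 2.32) and 1.51-fold with RGZ (1.15 to 2.0). The dimmer Max probe gave 58.5, 61.8, 70.0 and 62.0 in the same 4 groups, and 53.0 with vehicle. Its differences from vehicle were 0.14, 0.22, 0.40 and 0.23 log2 units, each within spot error.

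Mlx encodes the partner of MondoA and ChREBP. Mlx read 307.5 with BSO plus TGZ, 318.5 with TGZ, 397.0 with BSO plus RGZ, 398.9 with RGZ and 322.1 with vehicle. All 4 differences from vehicle lay within spot error, and the widest span between arrays was 1.30-fold. Its MondoA partner gene Mlxip was dim, with 13.3 for BSO plus TGZ, 12.9 for TGZ, 10.7 for BSO plus RGZ, 6.43 for RGZ and 5.66 for vehicle, which was not well above background. Mlxip was therefore at least 2.34-fold higher with BSO plus TGZ and at least 2.28-fold with TGZ. The ChREBP gene Mlxipl had 5837 with BSO plus TGZ, 4922 with TGZ, 6118 with BSO plus RGZ, 8677 with RGZ and 9737 with vehicle. It was 1.98-fold lower with TGZ (1.5 to 2.61), and its other probes gave -0.38 and 0.17 on the log2 scale for the same comparison, so the probes did not share a direction.

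Among the MAX-binding repressors, Mxd1, Mnt and Mga were higher and Mxd4 was lower with TGZ, each by less than 2-fold. Mxd1 encodes MAD1, which rises when cells leave the cell cycle to differentiate. Scaled Mxd1 signal was 94.5 with BSO plus TGZ, 90.6 with TGZ, 61.4 with BSO plus RGZ, 60.4 with RGZ and 55.3 with vehicle. The TGZ arrays stood above the other arrays, at 1.71-fold vehicle with BSO plus TGZ (1.29 to 2.27) and 1.64-fold with TGZ (1.23 to 2.18). The RGZ arrays differed from vehicle by less than spot error. The other Mxd1 probe was not well above background on any array.

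Mnt encodes the MAX partner that many tissues express at all times, and had 1 probe. Scaled Mnt signal was 2168 with BSO plus TGZ, 2513 with TGZ, 1344 with BSO plus RGZ, 1341 with RGZ and 1558 with vehicle. It was 1.39-fold higher with BSO plus TGZ (1.06 to 1.84) and 1.61-fold with TGZ (1.22 to 2.13), while both RGZ arrays were under vehicle by less than spot error. Mga encodes a very large protein with a MAX-binding domain and a T-box domain. Scaled Mga signal was 580.2 with BSO plus TGZ, 604.6 with TGZ, 465.0 with BSO plus RGZ, 406.6 with RGZ and 375.8 with vehicle. All 4 Mga probes were higher with TGZ, by 0.60 to 0.84 on the log2 scale.

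Mxd4 encodes MAD4, known from differentiated and resting cells. Its scaled signal was 230.0 with BSO plus TGZ, 183.4 with TGZ, 426.1 with BSO plus RGZ, 344.7 with RGZ and 310.9 with vehicle. Vehicle lay between the TGZ arrays below it and the RGZ arrays above it. Mxd4 was 1.35-fold lower with BSO plus TGZ (1.02 to 1.78) and 1.70-fold lower with TGZ (1.28 to 2.24). With BSO plus RGZ it was 1.37-fold higher (1.04 to 1.81). Its other probe, on the minus strand of mm9 at chr5:34520307-34520366, is shown because it gave the same order of groups.
Mxd4 A_51_P148865: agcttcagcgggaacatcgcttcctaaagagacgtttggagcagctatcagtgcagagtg
It read 59.9 with BSO plus TGZ, 52.7 with TGZ, 108.8 with BSO plus RGZ, 94.2 with RGZ and 77.9 with vehicle.

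Mxi1 encodes MXI1, another MAX-binding repressor. Its scaled signal was 542.5 with BSO plus TGZ, 639.1 with TGZ, 632.3 with BSO plus RGZ, 584.6 with RGZ and 560.5 with vehicle, and no difference from vehicle exceeded spot error. A dimmer probe named for Mxi1 read 5.90 with BSO plus TGZ and 4.49 with TGZ, not well above background in either, 14.4 with BSO plus RGZ, 12.3 with RGZ and 10.1 with vehicle. That probe was at least 1.69-fold lower with BSO plus TGZ and at least 1.52-fold lower with TGZ, so the Mxi1 probes did not share a direction with TGZ. The remaining family gene, Mxd3, was not well above background on any array.

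**Figure D2:**
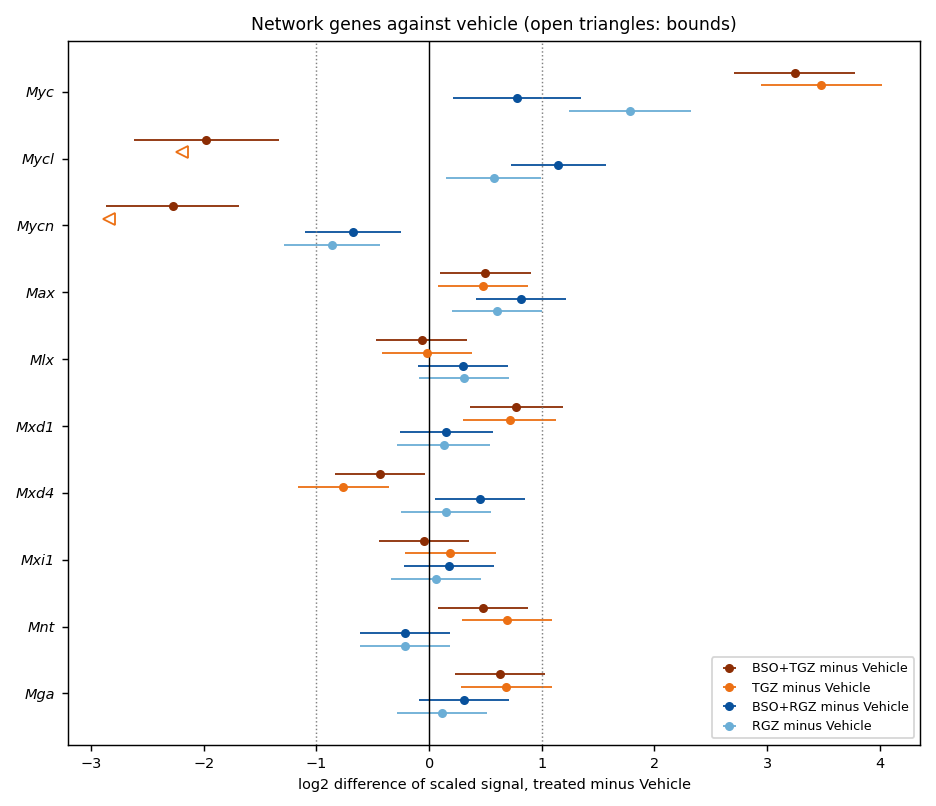
Log2 difference of scaled signal, treated minus vehicle (horizontal axis), of the 10 network genes in the 4 treated groups, with 95% intervals of spot error as bars. Open triangles are bounds and dotted lines mark 2-fold. Myc lay beyond 2-fold in 3 groups, and Mycl lay below vehicle with TGZ and above it with RGZ.

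The brightest probes of the network are set beside the other probes of the same genes in the plot of probes. With TGZ, 6 genes had several probes with a value, bounds included. In 4 of the 6 all of them went in 1 direction, and in Mlx and Mxi1 they did not. With RGZ the count was 5 of 6, and Mlx did not.

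**Figure D3:**
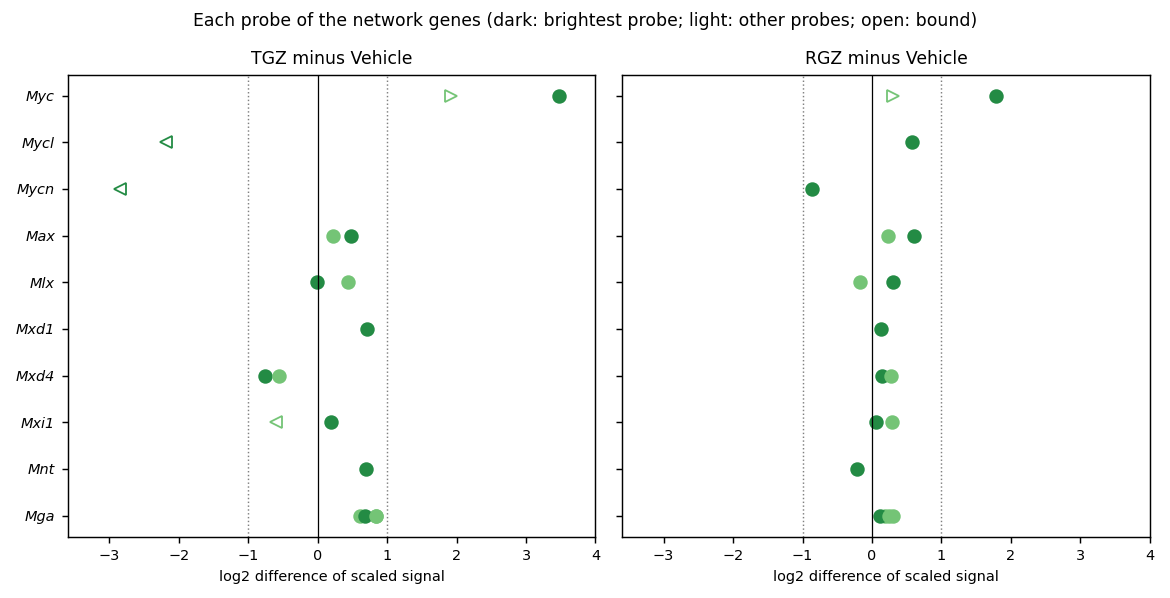
Log2 difference of scaled signal for each probe of the network genes with a value, TGZ minus vehicle in the left panel and RGZ minus vehicle in the right panel (horizontal axes). Dark points are the brightest probe of a gene, light points are its other probes, open triangles are bounds and dotted lines mark 2-fold. The 4 Mga probes lay together at 0.60 to 0.84 with TGZ.

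Counted over the network against vehicle, 3 of 10 genes differed by at least 2-fold with BSO plus TGZ (Myc higher, Mycl and Mycn lower), where 14.2% of all genes did. The same 3 genes did so with TGZ, where 19.6% of all genes did. With BSO plus RGZ, 1 gene (Mycl, higher) passed, against 6.83% of all genes, and with RGZ 1 gene (Myc, higher), against 3.32%. Differences beyond spot error were seen in 8 of 10 network genes with BSO plus TGZ, 6 of the 8 measured with TGZ, 5 of 10 with BSO plus RGZ and 4 of 10 with RGZ. The shares of all genes beyond spot error were 39.5%, 45.3%, 32.9% and 20.0% in that order. The network's median log2 difference was 0.21, 0.33, 0.30 and 0.14 in the same order, and that of all genes was -0.03, 0.02, -0.05 and -0.03. These 4 comparisons share the vehicle array. Scaling on 8 spike-in probes in place of the 75th percentile lowered the median of all genes by 0.46 with TGZ. It left Max, Mxd1, Mnt and Mga between 0.02 and 0.26 log2 units above vehicle with TGZ. It also brought Mxd4 to -1.22 and Mlx to -0.47, and turned Mxi1 to -0.27.

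The compounds were compared at the same dose and time, 300 mg/kg and 6 hr, in 2 pairs of arrays, TGZ against RGZ and BSO plus TGZ against BSO plus RGZ. Both drugs carry a thiazolidinedione ring, and troglitazone has the chroman group of vitamin E where rosiglitazone has an aminopyridine group. Myc was 3.25-fold higher with TGZ than with RGZ (2.44 to 4.32), and 5.53-fold higher with BSO plus TGZ than with BSO plus RGZ (4.06 to 7.54). The RGZ array exceeded the TGZ array at least 6.79-fold for Mycl, which was 8.72-fold lower with TGZ in the BSO pair (5.61 to 13.5), where only 3 of 19369 measured genes were lower still. For Mycn the excess of RGZ over TGZ was at least 3.95-fold, and Mycn was 3.03-fold lower with TGZ in the BSO pair (2.01 to 4.58).

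The same 3 genes passed 2-fold in both pairs, where 18.0% of all genes did without BSO and 13.6% with BSO. Beyond spot error were 5 of the 8 measured network genes without BSO and 6 of 10 with BSO, and 46.6% and 39.9% of all genes. Mnt was 1.87-fold higher with TGZ than with RGZ (1.42 to 2.47) and 1.61-fold in the BSO pair (1.22 to 2.13). Mxd1 was 1.5-fold higher (1.13 to 1.99) and 1.54-fold higher (1.16 to 2.04). Mxd4 was 1.88-fold lower with TGZ than with RGZ (1.42 to 2.48) and 1.85-fold lower in the BSO pair (1.40 to 2.44). Mga was 1.49-fold higher without BSO (1.13 to 1.96), and in the BSO pair its 1.25-fold lay within spot error (0.946 to 1.65).

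On their brightest probes, Max, Mlx and Mxi1 differed between the compounds by less than spot error in both pairs. For Max the TGZ to RGZ ratio was 0.919 (0.697 to 1.21) without BSO and 0.804 (0.610 to 1.06) with BSO, and for Mlx it was 0.798 (0.605 to 1.05) and 0.774 (0.587 to 1.02). Mxi1 gave 1.09 (0.829 to 1.44) and 0.858 (0.650 to 1.13). The dimmer probes of these genes were read on the log2 scale, TGZ minus RGZ. For Mxi1 the dimmer probe gave -0.89 or lower without BSO and -1.26 or lower with BSO. For Mlx it gave 0.62 and -0.15, and for Max -0.004 and -0.26. Without BSO the probes of Mlx and of Mxi1 thus went in opposite directions, and with BSO they shared 1 direction. The 2 pairs share no array: 9 of 10 network genes had the same direction in both, and all genes with a value did so in 81.1%. Spike-in scaling lowered the median of all genes by 0.54 for TGZ against RGZ. Every network gene measured on both arrays then moved by more than spot error. Max went to -0.67 and Mlx to -0.87. Mnt was at 0.36, Mxd1 and Mga were at 0.04 and 0.02, Mxi1 turned to -0.42 and Mxd4 reached -1.46. Myc stayed past 2-fold at 1.15.

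**Figure D4:**
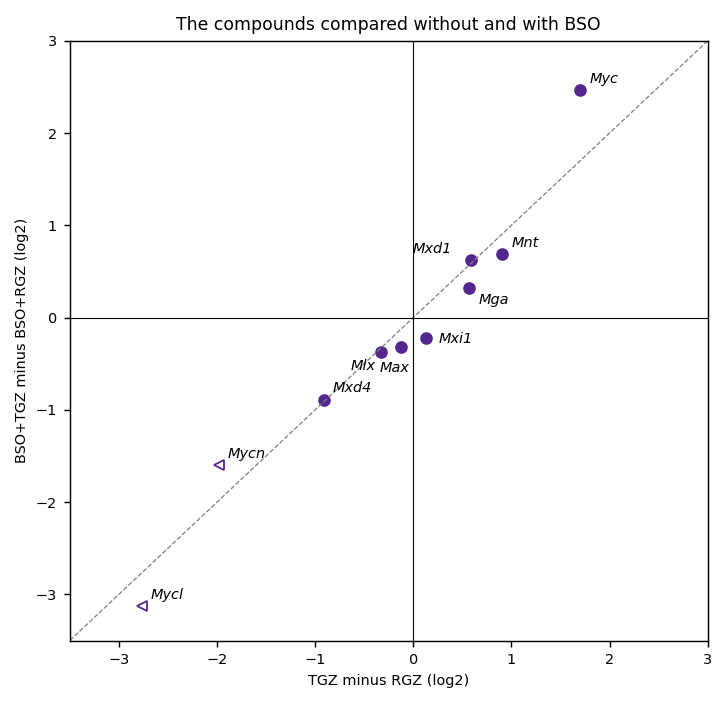
Log2 difference between the compounds for the 10 network genes, TGZ minus RGZ on the horizontal axis and BSO plus TGZ minus BSO plus RGZ on the vertical axis, with equal values on the dashed line. Open triangles are bounds on the horizontal axis. Myc lay highest on both axes, Mycl lowest on both, and Mxi1 was the gene whose sign differed.

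Few network genes differed with the addition of BSO. With BSO plus TGZ against TGZ, 0 of 10 genes differed by at least 2-fold, where 2.06% of all genes did, and 0 of the 8 measured genes differed beyond spot error, where 11.4% of all genes did. Myc stood at 0.850 of its TGZ signal (0.643 to 1.12). With BSO plus RGZ against RGZ, Myc was 2.0-fold lower (1.46 to 2.75), which ranked 88 from the lowest of 19866 measured genes. It was the 1 network gene past 2-fold, where 1.23% of all genes were. Mycl was 1.49-fold higher with BSO plus RGZ than with RGZ (1.12 to 1.98), and the other 8 genes lay within spot error, so that 2 of 10 network genes and 9.76% of all genes lay beyond it. The Myc value sits at the 2-fold limit: its second probe gave 0.05 on the log2 scale, and quantile normalization gave -0.93 for the brighter probe. The BSO effect on Myc, on the log2 scale, was -0.23 with TGZ and -1.0 with RGZ, a difference of 0.77 with a spot error (SD) of 0.31. The second probe gave -0.24 with TGZ and 0.05 with RGZ, so the probes did not share the direction of that difference.

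Genes that MYC is known to regulate were read from lists chosen with results of these data known, so their counts describe these arrays only. Of 20 nucleolar and ribosome biogenesis genes that MYC raises, 5 were at least 2-fold higher with BSO plus TGZ, 5 with TGZ, 3 with BSO plus RGZ and 0 with RGZ, and none was 2-fold lower. These are 25%, 25%, 15% and 0% of the list, where 14.2%, 19.6%, 6.83% and 3.32% of all genes were past 2-fold in either direction against vehicle. The medians were 0.42, 0.49, 0.55 and 0.21 log2 units in that order, beside -0.03, 0.02, -0.05 and -0.03 for all genes. Nop58, a core protein of small nucleolar ribonucleoproteins, was higher by 2.07 log2 units with BSO plus TGZ, 2.36 with TGZ, 1.34 with BSO plus RGZ and 0.82 with RGZ. Gnl3, which encodes nucleostemin, gave 1.53, 1.75, 1.44 and 0.95, and Nolc1, a nucleolar phosphoprotein, gave 1.00, 1.03, 1.15 and 0.74. Rrp12, an export factor of ribosomal subunits, gave 1.00, 1.31, 0.85 and 0.21, and Mybbp1a, a nucleolar MYB-binding protein, gave 1.00, 1.20, 0.49 and 0.15. Fbl, the methyltransferase fibrillarin, was near 0, at 0.08, 0.06, 0.16 and -0.04. With BSO plus RGZ, 18 of the 20 genes were higher than with RGZ, with a median of 0.30 log2 units beside -0.002 for all genes. In that comparison 0 of the 20 passed 2-fold, where 1.23% of all genes did. Myc itself was 2.0-fold lower there on its brighter probe, and its second probe gave 0.05 log2 units.

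Of 25 genes for metabolism and growth that MYC raises, 0 were at least 2-fold higher and 2 lower with BSO plus TGZ, 1 higher and 4 lower with TGZ, 2 higher and 0 lower with BSO plus RGZ, and 0 either way with RGZ. In all, 8.0%, 20.0%, 8.0% and 0% of the list passed, against the same 14.2%, 19.6%, 6.83% and 3.32% of all genes, so the share with TGZ was that of all genes. The medians lay between -0.05 and 0.08. Tert, the catalytic subunit of telomerase, had a log2 difference from vehicle of -2.22 with BSO plus TGZ and of -3.37 or lower with TGZ, where it was not well above background. Tfrc, the transferrin receptor, gave -1.08 with BSO plus TGZ and -1.6 with TGZ, and Cad, the enzyme that starts pyrimidine synthesis, gave -0.82 and -1.41. Srm, spermidine synthase, gave 1.30 with BSO plus RGZ. Odc1, which makes putrescine, gave 0.38 with BSO plus TGZ, 0.55 with TGZ, -0.47 with BSO plus RGZ and -0.57 with RGZ.

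Among 12 genes that MYC is known to lower, 5 were at least 2-fold higher and 1 was lower with BSO plus TGZ and with TGZ. All 12 had a value, bounds included, with BSO plus TGZ, and 11 with TGZ. With BSO plus RGZ, 2 of the 10 with a value were higher and 2 lower, and with RGZ 1 of 10 was higher and 1 lower. The shares past 2-fold were 50%, 54.5%, 40.0% and 20.0%, where those of all genes were 14.2%, 19.6%, 6.83% and 3.32%. The medians were 0.19, -0.06, -0.36 and -0.03 in that order of groups, so with TGZ the median and the count of passing genes did not share a sign. Cdkn1a, the cell cycle inhibitor p21, was higher by 6.01 log2 units with BSO plus TGZ, 6.37 with TGZ, 2.90 with BSO plus RGZ and 1.72 with RGZ. Thbs1, which encodes thrombospondin 1, was at least 5.15 higher with BSO plus TGZ and at least 5.67 with TGZ, since it was not well above background with vehicle. Gadd45g and Gadd45a, growth arrest genes, were 3.66 and 3.19 higher with BSO plus TGZ and 4.06 and 3.41 higher with TGZ. Gas1, also known from growth arrest, had log2 differences of -2.93 with BSO plus TGZ and -3.77 with TGZ. Ndrg1, a stress-induced gene, gave 1.44 with BSO plus TGZ, 1.90 with TGZ, -1.26 with BSO plus RGZ and -1.19 with RGZ.

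Known targets of ChREBP and MondoA with MLX include the enzymes that turn sugar into fat. Of the 16 with a value, 1 was at least 2-fold higher and 4 lower with BSO plus TGZ, and 1 higher and 5 lower with TGZ. With BSO plus RGZ 1 was higher and 3 lower, and with RGZ 1 higher and 0 lower. Past 2-fold were thus 31.2%, 37.5%, 25% and 6.25% of the list, beside 14.2%, 19.6%, 6.83% and 3.32% of all genes. The medians were -0.42, -0.45, -0.23 and -0.12 in that order. Fasn, fatty acid synthase, had log2 differences of -2.14 with BSO plus TGZ, -4.23 with TGZ, -1.16 with BSO plus RGZ and -0.56 with RGZ. G6pc, glucose-6-phosphatase, gave -1.01 with BSO plus TGZ and -3.71 with TGZ. Pklr, liver pyruvate kinase, gave -1.68 with BSO plus TGZ and -1.86 with TGZ, and Elovl6, a fatty acid elongase, gave -1.12 and -1.64 with these and -1.24 with BSO plus RGZ. Scd1, stearoyl-CoA desaturase, was the gene higher in all 4 groups, by 1.83, 2.16, 1.34 and 1.18. Txnip and Arrdc4, the arrestin genes most used as MondoA readouts, were 0.48 and 0.78 higher with TGZ, and 0.72 and 0.64 higher with BSO plus TGZ.

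**Figure D5:**
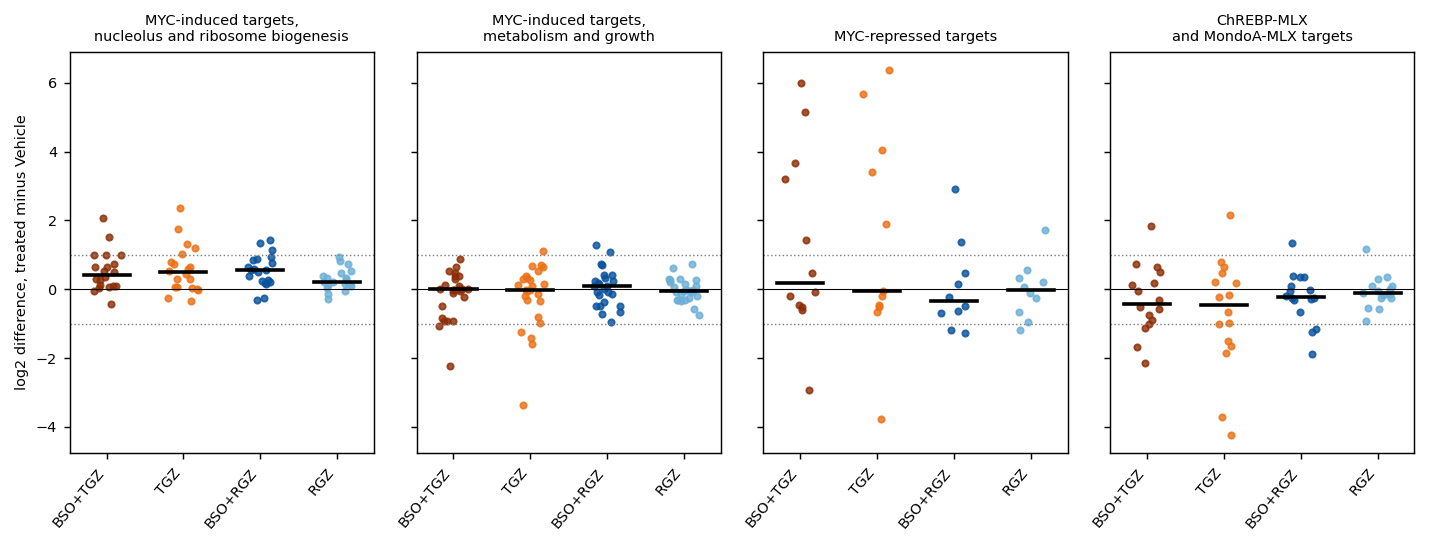
Log2 difference from vehicle (vertical axis) of the genes in 4 lists of known MYC and MLX targets, 1 point a gene, in the 4 treated groups. Horizontal bars are list medians and dotted lines mark 2-fold. The nucleolar list had medians of 0.42, 0.49, 0.55 and 0.21, and the MYC-repressed list held the widest spread.

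The corepressors and modifiers of the network are set against the same shares of all genes, 14.2% with BSO plus TGZ, 19.6% with TGZ, 6.83% with BSO plus RGZ and 3.32% with RGZ. Of 16 genes of the SIN3 complex, through which MXD proteins act, 1 was at least 2-fold lower with BSO plus TGZ and 3 with TGZ, and 0 with either RGZ group; the share with TGZ, 18.8%, was near that of all genes. The list medians were -0.26, -0.32, 0.11 and 0.07 log2 units in the order BSO plus TGZ, TGZ, BSO plus RGZ, RGZ. The genes were Arid4a, at -1.42 log2 units, Sap30, at -1.21, and Ing2, at -1.26 or lower, with TGZ, and Ing2 alone with BSO plus TGZ. Of 13 genes of the MGA Polycomb complex, 0 passed 2-fold in any group. Of 15 MYC cofactors with a value, Tfap4 passed, at -1.10 with TGZ. Of 15 genes with a value that set MYC protein stability, 3 were at least 2-fold higher with BSO plus TGZ and with TGZ. The 20.0% is again near the share of all genes with TGZ. Pim1, a kinase that stabilises MYC, was 2.22 higher with BSO plus TGZ and 2.38 with TGZ. Fbxo32 and Plk1 were 1.41 and 1.27 higher with BSO plus TGZ and 1.18 and 1.17 higher with TGZ. The deubiquitinase gene Usp36 was 1.10 higher with BSO plus RGZ.

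For the network genes measured on all arrays whose signal spanned at least 2-fold, which were Myc and Mxd4, the most similar profiles over the 5 groups were sought among 13910 genes. Closest to Myc were Kcnab1, Serpina3g, Rab44, Slc39a14 and Slc23a3, with root mean square differences of 0.22 to 0.34 log2 units. Kcnab1, a potassium channel subunit, was 6.69-fold higher than vehicle with BSO plus TGZ, 9.20-fold with TGZ, 1.85-fold with BSO plus RGZ and 2.88-fold with RGZ. Closest to Mxd4 were Pex13, Ints6, Gga2, Det1 and Mapre2, with root mean square differences of 0.03 to 0.05 log2 units.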

How the data were processed

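Total RNA from the livers of 6 animals per group was pooled in equal amounts and Cy3-labelled, per the labels' protocols. Per the file headers, the deposited spot intensity is the processed signal of Agilent Feature Extraction 12.0.3.1, after background subtraction and detrending, unscaled between arrays and with a surrogate near background. In the deposited value table the log2 values match the log2 processed signal up to 1 shift per array that aligns the 75th percentiles. Its column medians were 3.92 to 4.08, so genes were not centred, and no source used here names the software for that shift. The labels' abbreviations were spelled out from the title and general knowledge.

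From the intensities, spots of a probe were averaged, log2 taken and the array's 75th percentile over non-control probes subtracted. Probes flagged as non-uniform or population outliers (0 to 6 per array) were left out. Each gene was read from its brightest probe by mean log2 signal. It had a value where it was well above background on at least 1 of the 2 arrays compared; the dim side took the higher of its own signal and the array's floor, and is written "at least". Intervals use 1.96 times the combined Feature Extraction error; the median error on every array was 0.146 log2 units. The number of arrays limits precision. Probe coordinates are mm9, per the file headers, and probes of related genes can share sequence. Named genes were all 10 members, the rest of the network, up to 4 list genes farthest from 0 on either side in any comparison, and the 5 closest profiles. The lists hold 213 genes, all on the array, 1 through a synonym; members and lists were chosen with earlier results of these data known, and 8 dendritic cell markers were added after values were seen. The calculation was tested on simulated data. Alternatives were normexp background correction (limma 3.58.1 in R 4.3.3), median, spike-in and quantile scaling, no filter on dim probes, only genes detected on all 5 arrays, the mean over probes, and the deposited table. Other steps used Python 3.11.15 with pandas 2.3.3 and numpy 2.4.6.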

Additional observations from a re-analysis of the deposited data

How the results depend on the processing

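No paired analysis was possible because each group was 1 pooled array. The spot error does not hold the spread between animals, so no difference here was tested. Dim genes are limited most: Mycl and Mycn lay near background on the TGZ arrays, and Myc on the vehicle array. Of 622 single differences of the network genes recomputed under 8 alternatives, 583 moved by less than spot error, 39 moved by more, and 0 that had been past 2-fold changed sign.

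Normexp background correction, whose offset of 50 shrinks dim signals by construction, left 1 network gene past 2-fold for BSO plus TGZ against vehicle, 1 for TGZ against vehicle, 1 for TGZ against RGZ, and 0 for BSO plus RGZ against vehicle, RGZ against vehicle and BSO plus RGZ against RGZ. Myc then gave 1.84 log2 units with TGZ, 1.68 with BSO plus TGZ and 0.67 with RGZ, Mycl 0.63 with BSO plus RGZ, and Mycl and Mycn -0.58 and -0.90 with BSO plus TGZ. Keeping only genes detected on all 5 arrays removes Mycl and Mycn by construction, which left 1 gene for BSO plus TGZ and for TGZ against vehicle, 1 for each pair of compounds and 0 for BSO plus RGZ against vehicle. With no filter on dim probes, 1 gene passed for BSO plus TGZ against TGZ, Mycn at 2.60-fold. For BSO plus RGZ against RGZ, 0 genes passed under normexp, median, spike-in or quantile scaling or the mean over probes, with Myc at -0.40, -0.92, -0.97, -0.93 and -0.47.

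Spike-in scaling moved the median of all genes by -0.19 for BSO plus TGZ, -0.46 for TGZ and 0.13 for BSO plus RGZ against vehicle, by -0.54 and -0.32 for the compounds without and with BSO, and by 0.26 for BSO plus TGZ against TGZ. Median scaling moved it by 0.10 for BSO plus RGZ against vehicle and -0.15 for the compounds with BSO. Mxd4 in the compounds with BSO passed 2-fold under both, at -1.21 and -1.04. Among all genes past 2-fold, the share that was higher was 51.5% for TGZ against vehicle and 21.9% with spike-in scaling, 58.5% and 41.5% for BSO plus TGZ, 49.9% and 63.9% for RGZ, 44.6% and 61.2% for BSO plus RGZ (57.6% with median scaling). It was 52.3% and 17.2% for TGZ against RGZ, 61.2% and 30.7% in the BSO pair (45.3% with median scaling), 76.0% and 94.4% for BSO plus TGZ against TGZ (64.1% with median scaling), and 41.8% for BSO plus RGZ against RGZ, with 60.4% under median scaling and 54.7% under quantile normalization.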
